A study of Mus musculus with 9 samples.

Results

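The genes described here are 10 genes of the core pluripotency network, Pou5f1, Nanog, Sox2, Sall4, Utf1, Zfp281, Trim28, Lin28a, Lin28b and L1td1, which were picked by their symbols. They are 10 of 52609 annotated mouse genes that received a value, and all 10 passed the filter on low counts that left 18096 genes for testing. RNA sequencing was done on 9 libraries from lines that the labels call epiblast stem cells, which are cell lines grown from the epiblast of the mouse embryo on a layer of inactivated embryonic fibroblasts. All lines were kept in Activin A (20 ng/mL) and FGF2 (10 ng/mL), signals that hold such cells in a primed pluripotent state.

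The groups were a line knocked out for Dkk1, a secreted inhibitor of Wnt signalling (Dkk1_KO, n = 3), a line from which the Porcupine inhibitor IWP2, which blocks the secretion of Wnt proteins, was withdrawn once it was derived (IWP2_removed, n = 2), a line kept in 5 µM IWP2 (IWP2, n = 2) and a line with neither change (control, n = 2). IWP2_removed and IWP2 are called the IWP2-exposed groups. The protocol also names SB431542, but no library analysed here is labelled with it. The series describes the groups as separate lines, so the line and the knockout or treatment cannot be told apart. The labels do not say whether libraries of a group came from separate cultures, so p-values measure only the spread between these libraries. Chi-square per degree of freedom between replicates, which is near 1 for counting error alone, was 1.74 to 2.16 among the Dkk1_KO libraries, against 34.6 in IWP2_removed, 83.4 in IWP2 and 29.4 in control. Results on Dkk1_KO are therefore also given with its 3 libraries averaged to 1. Against the epiblast label, 8 of 13 epiblast markers were lower in Dkk1_KO than in control (edgeR adjusted p under 0.05), beside 23.0% of all tested genes. Tdgf1, Fgf8 and Otx2 averaged 0.207, 0.188 and 0.175 TPM in Dkk1_KO, and trophoblast genes such as Elf5 (163 TPM) and Hand1 (383 TPM) were high. However, 3 of the 13 were higher in Dkk1_KO than in control, beside 21.3% of all tested genes. They were Pou3f1 (13.6 and 2.76 TPM), Dnmt3b (78.0 and 30.1 TPM) and Eomes (53.2 and 9.75 TPM). Libraries held 10849490 to 17892751 estimated reads. TPM is a level corrected for transcript length and library size, summed here over the transcripts of a gene. Dkk1 itself was at 0.190, 0.228 and 0.309 TPM in Dkk1_KO, 1.07 and 1.69 TPM in IWP2_removed, 0.945 and 0.0930 TPM in IWP2, and 2.36 and 2.64 TPM in control. It was lower in each Dkk1_KO library than in both control libraries, but IWP2 replicate 2 (6 reads) was lower still than the Dkk1_KO libraries (10 to 16 reads).

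Pou5f1 encodes Oct4, which binds DNA beside Sox2 at joined octamer and Sox motifs, and Nanog is a homeodomain factor that works with both. These factors sustain the transcription of each other's genes in the epiblast and in pluripotent lines, while Sox2 and Utf1 are also made outside the epiblast, in the extraembryonic ectoderm of the mouse. Sall4, Zfp281 and Trim28 are nuclear proteins found with these factors. Lin28a and Lin28b bind RNA and block the maturation of let-7 microRNAs, and L1td1 is an RNA-binding protein of pluripotent cells.

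Promoter sequences are shown for the core factors and for Utf1, because Pou5f1 and Nanog parted from Sox2 in Dkk1_KO, Utf1 moved the other way, and the Nanog window ends at the start of a transcript whose share differed between groups. They come from RefSeq (mouse GRCm38.p6, plus strand), are cut where they would enter the annotated gene, and run 5′ to 3′ with matches to the motifs below in capitals. The windows are chr6:122707239-122707488 for Nanog, chr17:35505782-35506017 for Pou5f1, chr3:34649745-34649994 for Sox2 and chr7:139943606-139943788 for Utf1.
Nanog: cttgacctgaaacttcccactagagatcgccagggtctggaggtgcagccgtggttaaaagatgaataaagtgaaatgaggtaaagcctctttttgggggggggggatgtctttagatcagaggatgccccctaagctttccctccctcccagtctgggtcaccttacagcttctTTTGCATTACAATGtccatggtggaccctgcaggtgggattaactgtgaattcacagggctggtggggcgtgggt
Pou5f1: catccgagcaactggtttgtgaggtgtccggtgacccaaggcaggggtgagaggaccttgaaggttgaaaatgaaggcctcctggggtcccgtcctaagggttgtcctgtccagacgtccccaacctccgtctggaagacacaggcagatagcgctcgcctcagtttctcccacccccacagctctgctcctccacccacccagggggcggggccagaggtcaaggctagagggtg
Sox2: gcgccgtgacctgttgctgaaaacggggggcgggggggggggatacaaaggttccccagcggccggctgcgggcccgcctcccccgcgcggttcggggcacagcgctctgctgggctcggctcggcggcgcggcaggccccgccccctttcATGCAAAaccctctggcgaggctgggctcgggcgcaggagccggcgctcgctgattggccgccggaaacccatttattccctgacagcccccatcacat
Utf1: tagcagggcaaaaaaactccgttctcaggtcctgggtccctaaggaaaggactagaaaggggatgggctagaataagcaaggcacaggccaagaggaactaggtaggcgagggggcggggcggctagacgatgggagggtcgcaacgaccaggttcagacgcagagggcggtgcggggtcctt

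Motifs were searched on both strands in the 250 bases before each of 32851 RefSeq starts, 11 of which belong to 9 of the genes. Sall4 had no window in the table. The joined octamer and Sox motif TTTGCATNACAATG, which contains the octamer core and the Sox motif on the minus strand, lay in 2 of all windows (0.00609%), and both are overlapping windows of Nanog. In the Nanog sequence above it stands 75 to 62 bases before the start. The octamer core ATGCAAA was in 4.12% of all windows and matched Sox2, 99 to 93 bases before its RefSeq start. That Sox2 window ends 411 bases before the start of the annotated gene. The sequences shown for Nanog, Pou5f1 and Utf1 end directly before it. The Sox motif CATTGT, in 10.7% of windows, matched Lin28a and the second, downstream window of Pou5f1. The full octamer ATTTGCAT, which contains the core and was in 1.60% of windows, matched none of the 11. The windows of Utf1, Lin28b, Zfp281, L1td1 and Trim28 held none of these letters. A match is a string of letters and was not tested as a binding site.

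**Figure D1:**
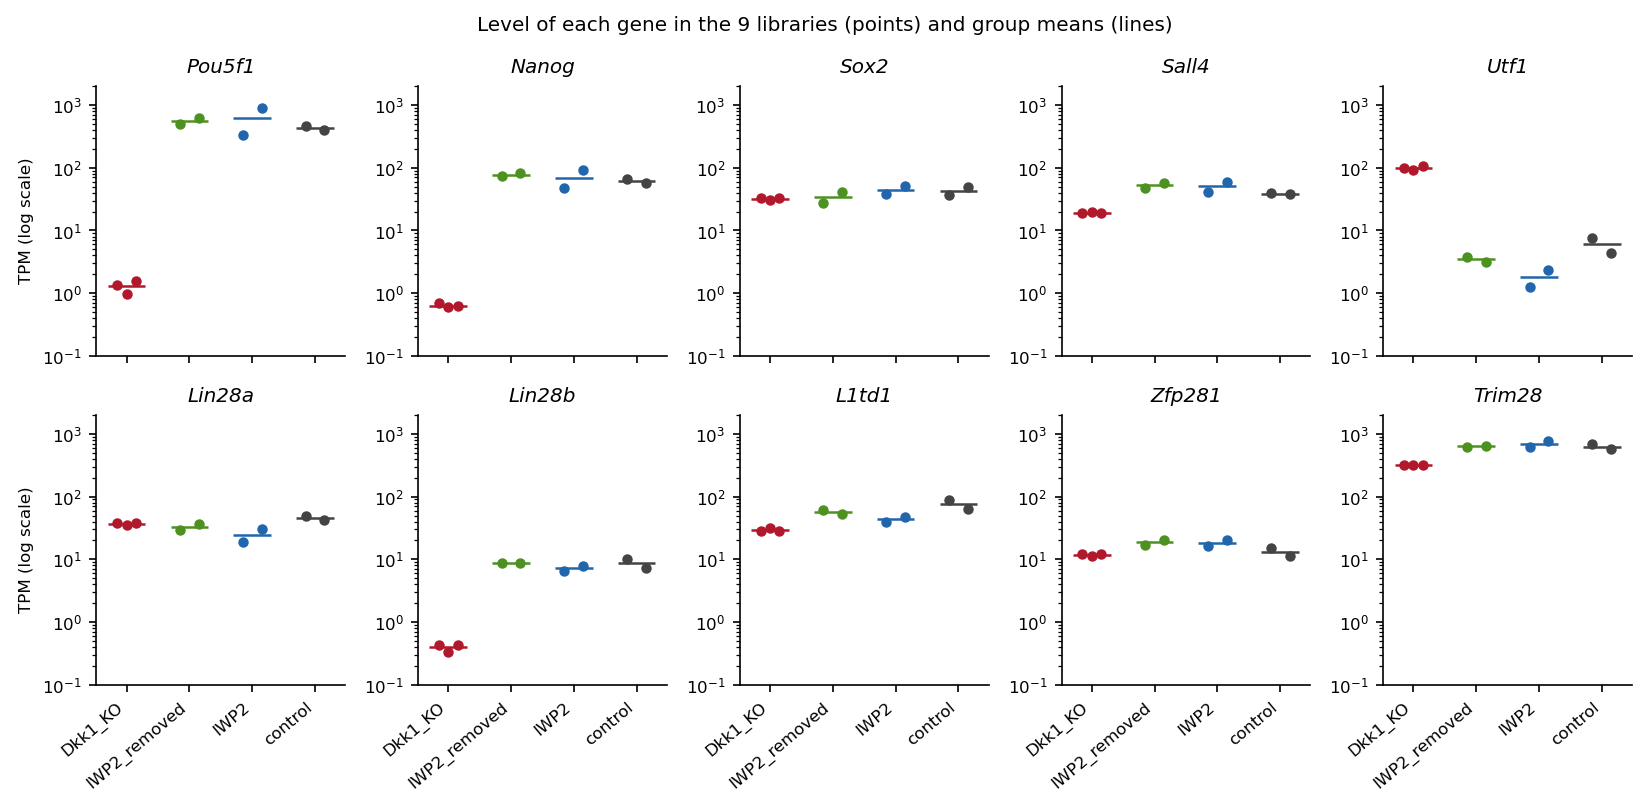
TPM of each of the 10 genes (vertical axis, log scale) in every library (points) by group, with the group mean as a line. In Dkk1_KO, Pou5f1, Nanog and Lin28b lie far below the other groups and Utf1 far above, while Sox2 lies at 30.7 to 33.4 TPM in Dkk1_KO, 27.4 to 41.1 in IWP2_removed, 38.2 to 51.5 in IWP2 and 36.7 to 49.2 in control.

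Among the core factors, Pou5f1 and Nanog transcripts were nearly absent from Dkk1_KO while those of Sox2 were not. Pou5f1 (chromosome 17, 35506018 to 35510772, plus strand, GRCm38) was at 1.34, 0.971 and 1.58 TPM in Dkk1_KO, 497 and 627 TPM in IWP2_removed, 335 and 895 TPM in IWP2, and 460 and 403 TPM in control. The Dkk1_KO level was 0.301% of the control mean and rested on 58 reads in 3 libraries, with no overlap with any other group. The log2 fold change in Dkk1_KO against control was -8.35 ± 0.55 (SE; edgeR quasi-likelihood test, Benjamini-Hochberg adjusted p = 1.19e-05). In bulk libraries fewer cells that express a gene and less RNA per cell cannot be told apart.

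Nanog (chromosome 6, 122707489 to 122714633, plus strand) was at 0.689, 0.598 and 0.627 TPM in Dkk1_KO, 73.2 and 81.4 TPM in IWP2_removed, 47.4 and 91.0 TPM in IWP2, and 66.9 and 56.3 TPM in control. Like Pou5f1 it was low in all 3 Dkk1_KO libraries, which held 83 Nanog reads together, and it did not overlap with any other group there. It fell by 6.40 on the log2 scale in Dkk1_KO against control (SE 0.36, edgeR adjusted p = 6.22e-06).

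Sox2 (chromosome 3, 34650405 to 34652461, plus strand, inside the longer gene Sox2ot on the same strand) was at 33.4, 30.7 and 32.4 TPM in Dkk1_KO, 27.4 and 41.1 TPM in IWP2_removed, 38.2 and 51.5 TPM in IWP2, and 36.7 and 49.2 TPM in control. The Dkk1_KO libraries lay below both control libraries in TPM and inside the range of IWP2_removed. The log2 fold change in Dkk1_KO against control was -0.20 ± 0.28 (SE, 95% interval -0.85 to 0.44, edgeR adjusted p = 0.588), so decreases of the size seen for Pou5f1 and Nanog lie outside the interval, while one of up to 0.85 does not. The ratio of Sox2 to Pou5f1 TPM was 24.9, 31.6 and 20.5 in Dkk1_KO, 0.0551 and 0.0657 in IWP2_removed, 0.114 and 0.0576 in IWP2, and 0.0799 and 0.122 in control. Sox2 thus exceeded Pou5f1 in each Dkk1_KO library and was far below it in each of the 6 other libraries.

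Utf1, a chromatin-associated factor that is a classical target of Oct4 and Sox2 in mouse embryonic stem cells, moved the other way. Utf1 (chromosome 7, 139943789 to 139945112, plus strand) was at 99.9, 93.5 and 106 TPM in Dkk1_KO, 3.81 and 3.16 TPM in IWP2_removed, 1.25 and 2.38 TPM in IWP2, and 7.67 and 4.46 TPM in control. All 3 Dkk1_KO libraries were above every other library, and both IWP2 libraries were below every other library. It rose by a log2 fold change of 4.31 ± 0.32 in Dkk1_KO against control (SE, a 19.9-fold change, edgeR adjusted p = 2.08e-05). In Dkk1_KO 6852 reads came from Utf1, against 220 in control.

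**Figure D2:**
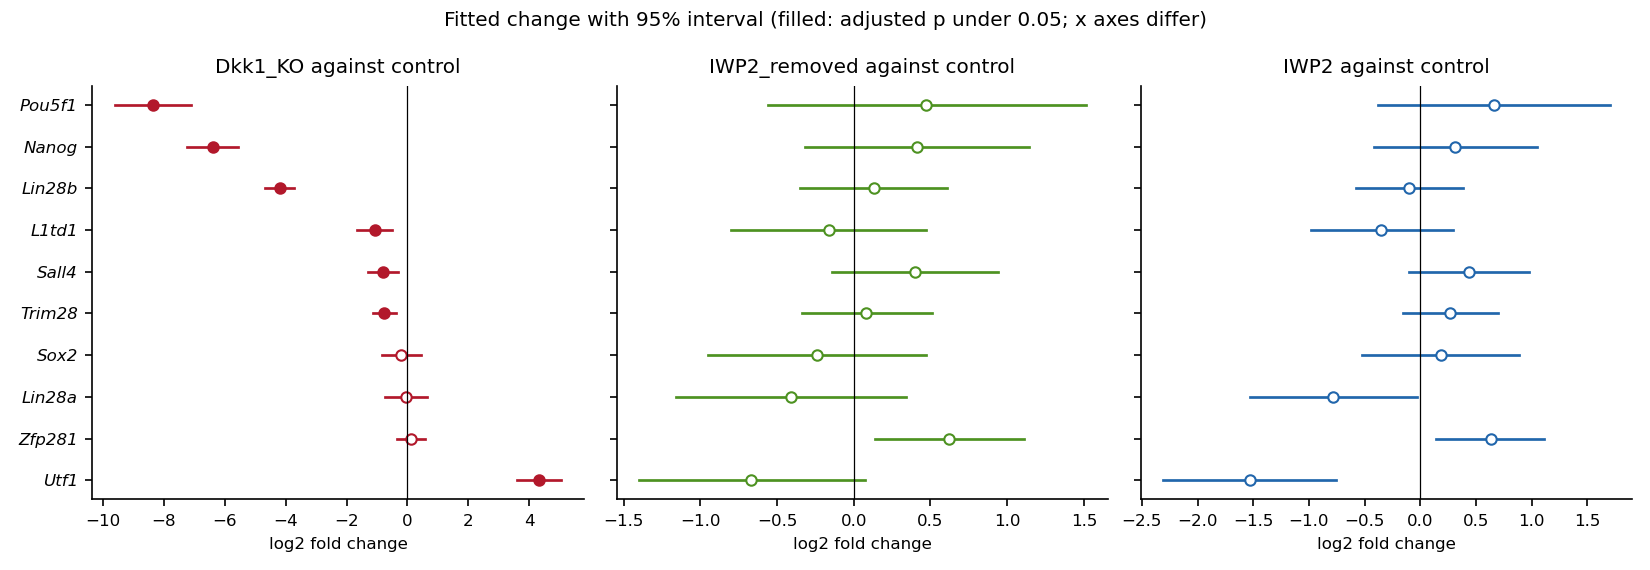
Log2 fold change against control (horizontal axes, which differ in range) from the edgeR model for each gene, with its 95% interval; filled points have an adjusted p under 0.05. In Dkk1_KO 6 of 10 genes are lower and Utf1 is higher, and in IWP2_removed and IWP2 no point is filled.

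Among the partners of the core factors, Sall4 and Trim28 fell in Dkk1_KO and Zfp281 was not called. Sall4, a zinc finger factor that binds with Oct4 and Nanog (chromosome 2, 168748332 to 168767943, minus strand), was at 19.0, 19.9 and 19.0 TPM in Dkk1_KO, 47.7 and 57.9 TPM in IWP2_removed, 40.9 and 60.1 TPM in IWP2, and 39.4 and 37.8 TPM in control. Its Dkk1_KO libraries were below all others, at a log2 fold change of -0.79 ± 0.21 against control (SE, edgeR adjusted p = 0.0164). The call ended without Dkk1_KO replicate 1 (adjusted p = 0.0583), without control replicate 2 (0.103) and with the Dkk1_KO libraries averaged to 1 (0.214, range over its 17 alternatives 0.000297 to 0.214, by edgeR, DESeq2 or limma).

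Trim28, also known as Kap1, the corepressor that silences retroviral elements through KRAB zinc finger proteins (chromosome 7, 12999114 to 13031035, plus strand), was at 323, 317 and 320 TPM in Dkk1_KO, 609 and 649 TPM in IWP2_removed, 617 and 781 TPM in IWP2, and 683 and 564 TPM in control. It was lower in the 3 Dkk1_KO libraries than in any other, with a log2 fold change of -0.76 ± 0.17 against control (SE, edgeR adjusted p = 0.00652; 0.183 with the Dkk1_KO libraries averaged to 1). Trim28 was nonetheless above 98.0% of the tested genes by mean TPM in Dkk1_KO and above 98.8% in control. Its only transcript annotated as protein-coding, Trim28-201, held 14.5% to 17.1% of that TPM over the 9 libraries. Zfp281, a zinc finger factor that binds near Nanog and represses it in mouse embryonic stem cells (chromosome 1, 136624901 to 136630053, plus strand), was at 12.1, 11.5 and 12.3 TPM in Dkk1_KO, 16.8 and 20.5 TPM in IWP2_removed, 16.1 and 20.3 TPM in IWP2, and 15 and 11.3 TPM in control. The Dkk1_KO values lay inside the control range, with a log2 fold change of 0.11 ± 0.19 (SE, 95% interval -0.33 to 0.56, edgeR adjusted p = 0.669).

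The RNA-binding genes Lin28a and Lin28b, a pair of paralogs that both block the maturation of let-7, came apart in Dkk1_KO. Lin28b (chromosome 10, 45376620 to 45486395, minus strand) was at 0.441, 0.341 and 0.440 TPM in Dkk1_KO, 8.81 and 8.77 TPM in IWP2_removed, 6.52 and 7.95 TPM in IWP2, and 10.1 and 7.27 TPM in control. The Dkk1_KO libraries were far below all others, with a log2 fold change of -4.20 ± 0.22 against control (SE, edgeR adjusted p = 3.76e-06). Lin28a (chromosome 4, 134003330 to 134018841, minus strand) was at 38.3, 35.5 and 37.5 TPM in Dkk1_KO, 29.1 and 36.8 TPM in IWP2_removed, 18.6 and 30.7 TPM in IWP2, and 49.8 and 42.6 TPM in control. Its Dkk1_KO values stood between those of IWP2 and control, with a log2 fold change of -0.06 ± 0.30 against control (SE, 95% interval -0.74 to 0.63, edgeR adjusted p = 0.898).

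Lin28a therefore made up nearly all Lin28 transcripts in Dkk1_KO. The ratio of Lin28a to Lin28b TPM was 86.8, 104 and 85.1 in Dkk1_KO, 3.31 and 4.19 in IWP2_removed, 2.85 and 3.85 in IWP2, and 4.94 and 5.86 in control. Both IWP2-exposed groups lay below control in this ratio, which was not tested as such. L1td1 (chromosome 4, 98726734 to 98738480, plus strand) was at 28.8, 31.4 and 28.0 TPM in Dkk1_KO, 62.0 and 53.1 TPM in IWP2_removed, 40.1 and 48.0 TPM in IWP2, and 88.1 and 62.5 TPM in control. It was lowest in Dkk1_KO without overlap, at a log2 fold change of -1.07 ± 0.25 against control (SE, edgeR adjusted p = 0.00846; 0.0647 without control replicate 1 and 0.154 with the Dkk1_KO libraries averaged to 1).

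In all, 7 of the 10 genes were called in Dkk1_KO against control (edgeR adjusted p under 0.05), 1 higher and 6 lower, where 44.3% of all tested genes were called, 21.3% higher and 23.0% lower (3857 and 4161 genes, against 2451 and 4218 by limma on log2(TPM + 0.1)). The same 7 genes had no overlap between the groups in CPM, read counts scaled by library size with TMM factors that correct for composition, against 73.4% of all tested genes. With the Dkk1_KO libraries averaged to 1, 4 genes were called, Pou5f1, Nanog, Lin28b and Utf1, and 2725 of all genes in place of 8018. The median log2 fold change of the 10 genes was -0.78, against -0.03 over all tested genes. By the measure of a mean TPM of at least 50% of control, 5 of the 10 were kept in Dkk1_KO, which were Zfp281 at 91.2%, Lin28a at 80.2%, Sox2 at 74.9%, Trim28 at 51.3% and Utf1 at 1647%. This is a description only, since the share of all tested genes kept by that threshold was not computed. Kept does not mean unchanged, as Trim28 was called lower and Utf1 higher. Trim28 stood just inside that threshold and Sall4, at 49.9%, just outside it, while in CPM Sall4 was at 57.8% and counted as kept.

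Set against the IWP2-exposed groups, which were compared with the same 3 Dkk1_KO libraries, 7 genes were called by edgeR in each comparison, 1 higher and 6 lower. DESeq2 called 7 against IWP2_removed and 8 against IWP2, beside 8336 and 9114 of all genes. Limma on log2(TPM + 1) called 8 and 9 in the same order, beside 6639 and 7496 of all genes. The background by edgeR was 47.2% of tested genes for Dkk1_KO against IWP2_removed, 22.5% higher and 24.7% lower. For Dkk1_KO against IWP2 it was 51.5%, 24.2% higher and 27.2% lower. In CPM 9 of the 10 genes did not overlap in each comparison, Sox2 being the exception, against 74.9% of all genes for IWP2_removed and 69.9% for IWP2. Log2 fold changes of Pou5f1 were -8.82 ± 0.56 against IWP2_removed and -9.01 ± 0.56 against IWP2, and those of Utf1 were 4.98 ± 0.33 and 5.84 ± 0.35 in the same order (SE). With the Dkk1_KO libraries averaged to 1, Sall4, L1td1 and Trim28 were no longer called in either comparison, and calls over all genes fell too. Their log2 fold changes were then -1.17, -0.90 and -0.83 against IWP2_removed and -1.21, -0.71 and -1.01 against IWP2. L1td1 was the least stable call, at an edgeR adjusted p of 0.0166 against IWP2_removed, which became 0.0535 without Dkk1_KO replicate 3, 0.0699 without IWP2_removed replicate 1 and 0.0629 without its replicate 2. Against IWP2 its edgeR adjusted p was 0.0388, and 0.0898 to 0.1 without any 1 of the Dkk1_KO libraries and 0.463 without IWP2 replicate 2. Lin28a was not called in either, at 0.35 ± 0.30 against IWP2_removed (edgeR adjusted p = 0.375) and 0.72 ± 0.31 against IWP2 (0.0785). It was called higher in 1 of 17 alternatives against IWP2_removed (lowest adjusted p 0.0474, by edgeR) and in 6 of 17 against IWP2, which were DESeq2, edgeR with no filter on low counts, both limma fits, the replicate letter as a term, and edgeR without IWP2 replicate 2 (1.47 ± 0.17, SE, adjusted p = 0.000341). Zfp281 was at -0.51 ± 0.19 in both (SE, edgeR adjusted p = 0.0572 against IWP2_removed and 0.0511 against IWP2), and was called lower in 6 of 17 alternatives in each. These included upper-quartile scaling, no filter and both limma fits in each, and edgeR without IWP2_removed replicate 1 (adjusted p = 0.0465) and without IWP2 replicate 1 (0.00381).

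The comparisons of IWP2_removed and of IWP2 with control share the control libraries. In both, a difference between lines and a response to IWP2 cannot be told apart. None of the 10 was called in IWP2_removed against control by edgeR, where 1.25% of tested genes were called, 0.669% higher and 0.586% lower. Without overlap in CPM were 6 genes, Pou5f1, Nanog, Sall4, Lin28a, Zfp281 and Utf1, against 38.4% of all genes. A single unadjusted p was under 0.05, that of Zfp281, and DESeq2 and limma called 0. Zfp281 was higher in both IWP2_removed libraries than in both control libraries, at a log2 fold change of 0.62 ± 0.21 (SE, 95% interval 0.14 to 1.11, edgeR adjusted p = 0.271). The widest interval was that of Pou5f1, 0.47 ± 0.45 (SE, -0.56 to 1.51), and the narrowest that of Trim28, 0.08 ± 0.19 (SE, -0.34 to 0.51).

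In IWP2 against control edgeR also called 0 of the 10, where 2.19% of tested genes were called, 1.27% higher and 0.917% lower. Unadjusted p was under 0.05 for 3 genes, Lin28a, Zfp281 and Utf1, whose libraries did not overlap between the groups in CPM, against 34.9% of all genes. DESeq2 called 1 of them, Utf1 (adjusted p = 0.000538), beside 1002 of all genes, and limma on log2(TPM + 1) called 0, beside 219. Utf1 was at a log2 fold change of -1.53 ± 0.34 (SE, 95% interval -2.31 to -0.76, edgeR adjusted p = 0.0608). Lin28a was at -0.78 ± 0.33 (-1.53 to -0.03, edgeR adjusted p = 0.288) and Zfp281 at 0.63 ± 0.21 (0.14 to 1.11, edgeR adjusted p = 0.183).

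By the chi-square above, the IWP2 libraries differed from each other more than those of any other group. Every one of the 10 genes had a higher TPM in IWP2 replicate 2 than in replicate 1, by 2.67-fold for Pou5f1 and 1.92-fold for Nanog, whereas 30.8% of all tested genes were higher in replicate 2. In IWP2_removed 7 of the 10 were higher in replicate 2 (40.9% of all genes), and in control 1 was, Sox2 (33.5%). Summed TPM of 14 fibroblast genes was 1168 in IWP2 replicate 1 and 682 in replicate 2, and its part in the difference was not tested. Without IWP2 replicate 1, 6 of the 10 genes were called against control, Pou5f1, Nanog, Sall4, Zfp281 and Trim28 higher and Utf1 lower, while calls over all genes went up as well, to 2432 (1147 higher and 1285 lower) in place of 396. Without IWP2 replicate 2 there were 3, Lin28a, L1td1 and Utf1, all lower, with 716 calls over all genes (495 higher and 221 lower). Utf1 was the gene called in both cases, at a log2 fold change of -1.05 ± 0.24 without replicate 1 and -2.26 ± 0.28 without replicate 2 (SE, edgeR adjusted p = 0.0321 and 0.00893).

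IWP2_removed was also compared with IWP2, where a difference between lines and the withdrawal of the inhibitor cannot be told apart. By edgeR 0 of 10 genes were called, where 0.0608% of tested genes were, 0.0387% higher and 0.0221% lower, with 1 unadjusted p under 0.05, that of Utf1, and 0 calls by DESeq2 and by limma. Utf1 was at a log2 fold change of 0.86 ± 0.34 (SE, 95% interval 0.08 to 1.65, edgeR adjusted p = 0.452). It was the only one of the 10 without overlap in CPM, against 27.0% of all genes. Without IWP2 replicate 2, Nanog, Lin28a and Utf1 were called higher in IWP2_removed, as calls over all genes went up to 454 (137 higher and 317 lower) in place of 11.

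**Figure D3:**
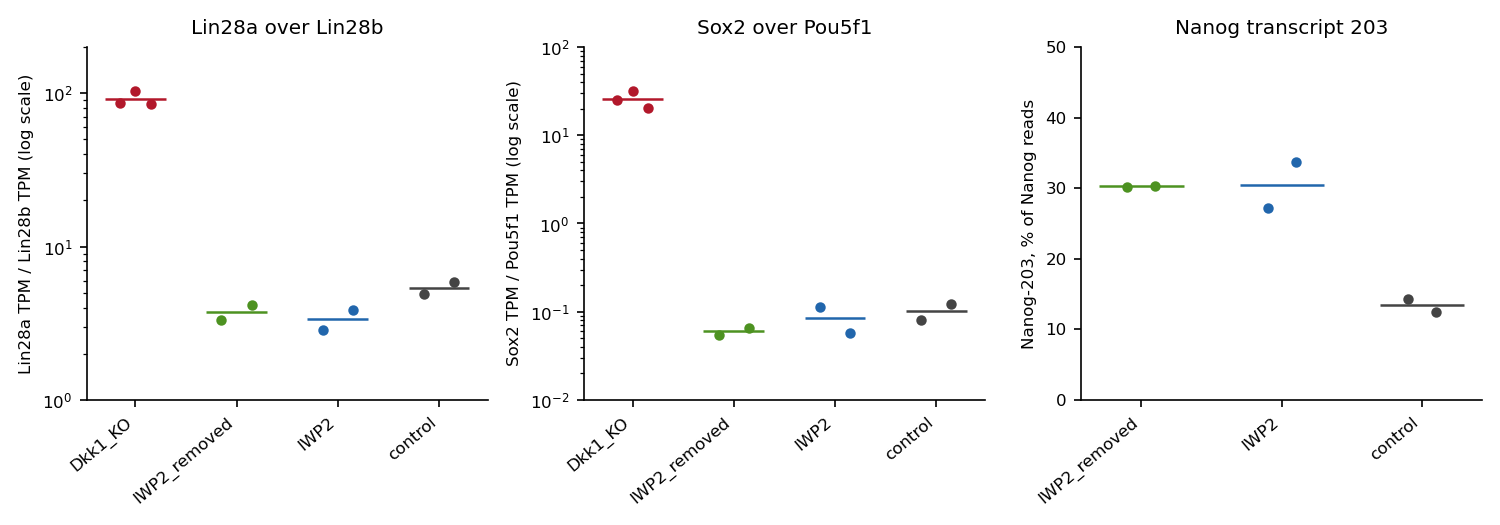
Ratio of Lin28a to Lin28b TPM (left, log scale), ratio of Sox2 to Pou5f1 TPM (middle, log scale) and share of Nanog reads assigned to transcript Nanog-203 (right, percent), for every library (points) with group means (lines). Dkk1_KO is left out on the right because it held 26 to 31 Nanog reads per library; there IWP2_removed and IWP2 lie at 27.2% to 33.7% and control at 12.5% and 14.3%.

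Although the Nanog total was not called in either IWP2-exposed group against control, its reads were assigned to different transcripts. Nanog-203, whose start at position 122707489 lies 79 bases before that of Nanog-201 and directly after the Nanog sequence shown, was assigned 30.2% and 30.3% of Nanog reads in IWP2_removed, 27.2% and 33.7% in IWP2, and 14.3% and 12.5% in control. Every IWP2_removed and IWP2 library was above both control libraries. In TPM, Nanog-203 was at 24.0 and 26.8 in IWP2_removed, 14.0 and 33.1 in IWP2, and 10.5 and 7.79 in control, while Nanog-201 was at 49.2 and 54.7, 33.3 and 57.9, and 56.4 and 48.5 in the same order. Salmon's split among transcripts with shared exons is an estimate, and these shares were not tested. Nanog-203 and Nanog-201 differ only before position 122707812, so their split rests on reads near the start. Whether the use of the starts differed was not tested. In Dkk1_KO the estimated share was 41.4%, 0% and 100%, on at most 31 reads.

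For other genes too, the TPM total depended on transcript estimates. Summed reads, from which the tested counts came, were whole numbers within 0.01 in 9 of 9 libraries for Pou5f1, in 8 for Trim28 and in 5 for Sall4. Sall4-202, of 2534 bases, was assigned 19.9% and 28.1% of Sall4 reads in IWP2_removed, 8.18% and 48.0% in IWP2, and 14.3% and 11.2% in control, with 20.5%, 9.86% and 12.7% in Dkk1_KO. The longer Sall4-201, of 5073 bases, was at 6.24, 7.56 and 7.52 TPM in Dkk1_KO, against 12.3 to 15.4 TPM over the 6 libraries of the other groups. It was thus lower in each Dkk1_KO library than in any other library. Pou5f1-202, a transcript of 435 bases, held 38.5% to 56.5% of the Pou5f1 TPM in the 9 libraries but 9.49% to 17.9% of its reads, and Trim28-201 held 53.3% to 58.2% of the Trim28 reads but 14.5% to 17.1% of its TPM. Levels of these genes relative to others in TPM rest on short transcripts to that extent.

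The genes whose TPM profile was most like that of each gene were found by the mean absolute difference of log2(TPM + 1), centred on control, over the 9 libraries and 9959 genes. For Pou5f1 these were Lefty1 (0.28) and Tdgf1 (0.62), for Nanog Slc7a3 (0.37), and for Lin28b Armcx6 (0.14) and Jam3 (0.18). For Utf1 they were Noct (0.24) and Phlda2 (0.27), at 143 and 59.7 TPM in Dkk1_KO and 10.4 and 3.60 TPM in control. The profiles of Sox2 (Pde6d, Ogfod3), Sall4 (Nabp2, Fbxw4), Lin28a (Zfp53, Xbp1), Zfp281 (Sars2, Agk), L1td1 (Ccny, Fkbp10) and Trim28 (Psmc4, Sf3a3) had neighbours within 0.05 to 0.14.

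Genes around the network were described through lists chosen by known function, whose counts in Dkk1_KO against control stand beside 44.3% of all tested genes called, 21.3% higher and 23.0% lower, and 2725 genes with the Dkk1_KO libraries averaged to 1. Of 14 targets of Oct4 and Sox2, 2 were called higher and 8 lower in Dkk1_KO against control, their median log2 fold change being -0.85, and with the Dkk1_KO libraries averaged to 1 the counts were 2 and 5. Lefty1, a Nodal inhibitor, averaged 0.813 ± 0.170 TPM in Dkk1_KO and 330 ± 73.7 TPM in control, and Tdgf1, the Nodal co-receptor, 0.207 ± 0.113 and 164 ± 84.8 TPM (SD, n = 3 and 2; edgeR adjusted p = 1.27e-06 and 1.41e-06). The genes called higher were Dppa4 and Dppa5a, named after their values were seen, with 3405 and 271 reads in Dkk1_KO and 0 in control.

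In the IWP2-exposed groups 1 of these targets was called, Gdf3, a TGF-beta family ligand. Gdf3 averaged 13.9 ± 3.28 TPM in IWP2_removed, 0.575 ± 0.114 TPM in IWP2 and 15.5 ± 5.11 TPM in control (SD, n = 2 each). It was lower in IWP2 than in control by a log2 fold change of -4.52 ± 0.46 (SE, edgeR adjusted p = 0.00382; 0.0406 without the Dkk1_KO libraries) and higher in IWP2_removed than in IWP2 by 4.53 ± 0.46 (SE, edgeR adjusted p = 0.0281; 0.0400 without them).

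Of 17 binding partners of Oct4 and Nanog, 2 were called higher and 8 lower in Dkk1_KO against control, beside 21.3% and 23.0% of all genes (median log2 fold change -0.40), and 1 and 2 with the Dkk1_KO libraries averaged to 1. Sall1, a zinc finger paralog of Sall4, averaged 4.43 ± 0.116 TPM in Dkk1_KO and 18.1 ± 1.07 TPM in control, and Nr0b1, an orphan nuclear receptor, 4.27 ± 0.271 and 0.349 ± 0.0583 TPM (SD; edgeR adjusted p = 1.92e-05 and 0.000235). Smarcd1, a subunit of the BAF chromatin remodeller, was at 35.5 ± 11.5 and 104 ± 3.41 TPM (adjusted p = 0.000292 by edgeR). No partner was called in IWP2_removed or IWP2 against control, and of the largest by level, Chd4 was at log2 fold changes of 0.10 ± 0.14 and 0.14 ± 0.14, and Hdac2 at 0.14 ± 0.17 and 0.27 ± 0.17 (SE).

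Of 14 genes of the Lin28 and let-7 axis, 5 were called higher and 4 lower in Dkk1_KO against control, where 44.3% of all genes were called (median log2 fold change -0.01), and 1 and 1 with the Dkk1_KO libraries averaged to 1. Ccnd2, a cyclin and let-7 target, averaged 7.72 ± 0.783 TPM in Dkk1_KO and 84.7 ± 14.2 TPM in control. Trim71, a let-7 target and RNA-binding ubiquitin ligase, was at 14.2 ± 0.0596 and 6.11 ± 0.914 TPM, and Igf2bp1, an mRNA-binding let-7 target, at 77.8 ± 2.07 and 35.0 ± 6.27 TPM (SD; edgeR adjusted p = 1.62e-05, 0.000377 and 0.00111, the last 0.0694 with the libraries averaged). In IWP2 Trim71 was at 2.73 ± 0.477 TPM and was called lower than in control (edgeR adjusted p = 0.0419), but not without the Dkk1_KO libraries (0.257).

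Of 15 genes that act with Trim28 in silencing, 5 were called higher and 3 lower in Dkk1_KO against control, a share near the 44.3% of all genes (median log2 fold change 0.15), and 2 and 1 with the Dkk1_KO libraries averaged to 1. Zfp809, a KRAB zinc finger protein that brings Trim28 to retroviral sequences, averaged 26.1 ± 1.14 TPM in Dkk1_KO and 8.62 ± 0.946 TPM in control, Trim24, a relative of Trim28, 23.1 ± 0.841 and 11.7 ± 2.30 TPM, and Cbx5, which encodes the heterochromatin protein HP1 alpha, 25.8 ± 2.63 and 73.9 ± 3.53 TPM (SD; edgeR adjusted p = 6.85e-05, 7.45e-05 and 0.000306). Setdb1, the H3K9 methyltransferase that works with Trim28, was called higher in IWP2_removed than in control (32.9 ± 3.48 and 17.7 ± 4.72 TPM, edgeR adjusted p = 0.0199). In IWP2, Zfp57, Trim24 and Cbx3 were called higher than in control (adjusted p = 0.0207, 0.0470 and 0.0495 by edgeR). None of these 4 calls of the IWP2-exposed groups remained without the Dkk1_KO libraries (edgeR adjusted p 0.231 to 0.324).

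Paralogs of Pou5f1, Sox2, Sall4 and Zfp281 were lower in sum in Dkk1_KO than in any other library. Of the 18 listed 17 were tested, and 3 were called higher and 9 lower in Dkk1_KO against control (median log2 fold change -0.85), against 1 and 7 with the Dkk1_KO libraries averaged to 1. Summed TPM over the 18 was 79.6 to 87.7 in Dkk1_KO, 147 to 157 in IWP2_removed, 149 to 214 in IWP2 and 152 to 159 in control. Sox1, a neural relative of Sox2, averaged 0.0311 ± 0.00453 TPM in Dkk1_KO and 12.5 ± 1.07 TPM in control, Sox11 0.451 ± 0.0515 and 13.6 ± 0.599 TPM, and Sall2 2.39 ± 0.0966 and 17.7 ± 2.36 TPM (SD; edgeR adjusted p = 1.11e-06, 1.11e-06 and 2.93e-06). Pou2f2, an octamer-binding factor, was called higher than in control in IWP2_removed (1.27 ± 0.0224 TPM) and in IWP2 (1.04 ± 0.311 TPM), against 0.261 ± 0.163 TPM in control, and neither call remained without the Dkk1_KO libraries (adjusted p = 0.231 and 0.157 by edgeR).

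**Figure D4:**
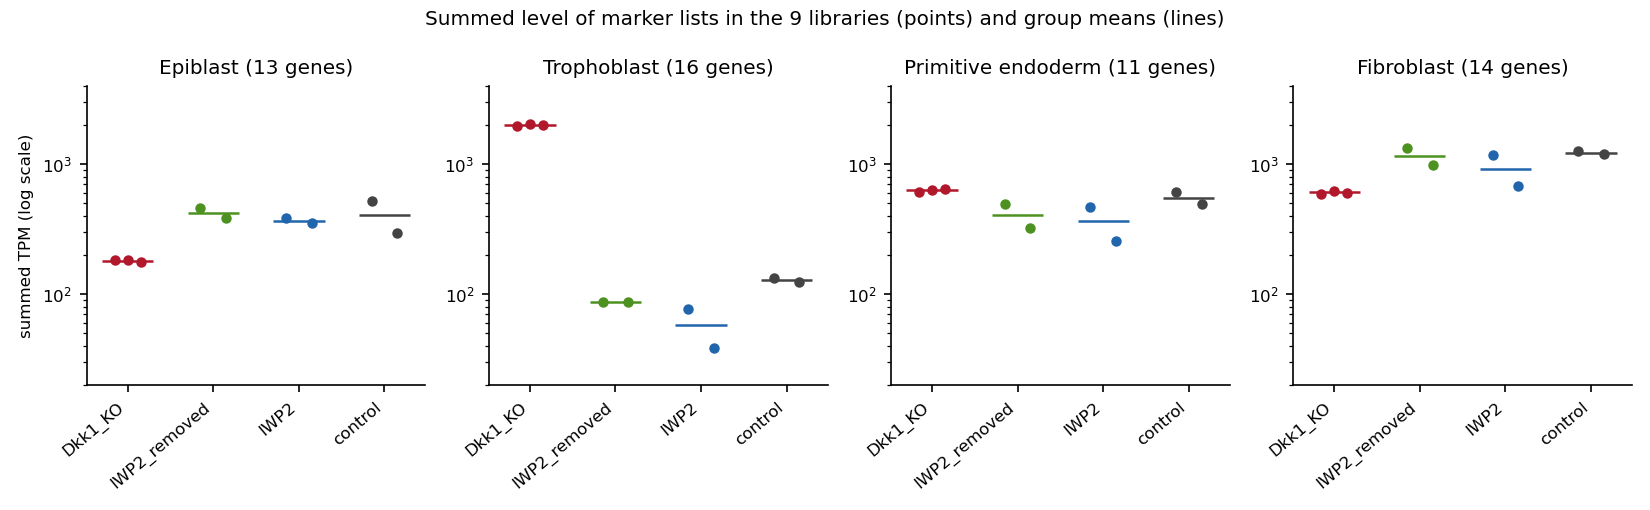
Summed TPM of 4 marker lists (vertical axis, log scale) in every library (points) with group means (lines). The trophoblast sum is 1963 to 2050 in Dkk1_KO, 86.5 to 86.6 in IWP2_removed, 38.4 to 76.9 in IWP2 and 125 to 133 in control, and the epiblast and fibroblast sums are lowest in Dkk1_KO.

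Of 13 epiblast markers 3 were called higher and 8 lower in Dkk1_KO against control. The higher ones were Pou3f1, Dnmt3b and Eomes, named after their values were seen, and Eomes stands in the trophoblast list too. The lower ones included Tdgf1, Fgf8 and Otx2 (edgeR adjusted p = 1.41e-06, 1.08e-05 and 6.77e-05), and the summed TPM of the list was 177 to 184 in Dkk1_KO, 386 to 458 in IWP2_removed, 352 to 383 in IWP2 and 297 to 523 in control. Of 16 trophoblast markers 15 were called higher and 0 lower. Elf5 averaged 163 ± 6.91 TPM in Dkk1_KO and 0.125 ± 0.111 TPM in control, and Hand1 383 ± 14.8 and 0.0434 ± 0.0614 TPM (SD). Trophoblast markers were thus high in the same libraries in which Pou5f1, Nanog and Lin28b were low and Utf1 was high, and their part in those changes was not tested.

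Of 14 fibroblast markers, which the feeder layer could supply, 0 were called higher and 10 lower in Dkk1_KO against control, with Dcn at 2.27 ± 0.176 and 38.9 ± 7.72 TPM, and their summed TPM was 593 to 622 in Dkk1_KO, 985 to 1342 in IWP2_removed, 682 to 1168 in IWP2 and 1189 to 1258 in control. Of 11 primitive endoderm markers 2 were called higher and 2 lower, Gata4 being at 5.65 ± 0.220 and 0.515 ± 0.283 TPM and Sox17, named after its values were seen, at 0.00800 and 1.56 TPM. With the Dkk1_KO libraries averaged to 1, the counts were 1 and 6 for epiblast, 13 and 0 for trophoblast, 0 and 5 for fibroblast and 2 and 0 for primitive endoderm markers. In IWP2 against control, Krt7 of the trophoblast list and Gata4 of the primitive endoderm list were called lower (edgeR adjusted p = 0.0292 and 0.0283), neither of them without the Dkk1_KO libraries (0.358 and 0.267). No epiblast or fibroblast marker was called there, and in IWP2_removed against control no gene of these 4 lists was. The part of these lists in the levels of the 10 genes was not tested.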

How the data were processed

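Libraries were prepared with a TruSeq stranded mRNA kit, per the labels' protocols. The authors deposited, for each of 9 libraries, estimated counts and TPM per transcript. Salmon, DESeq2 and edgeR are named in the submitters' processing notes without versions, and per the file headers the values are Salmon's. The effective length also given per transcript was the same in all 9 libraries (249 bases below the length for long transcripts). No source used here gives the transcriptome build.

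Of 133618 transcripts 133399 matched GENCODE vM21 (GRCm38) by stable identifier, 2166 of them with another version number. The 219 others held 0.117% to 0.161% of the reads. Per gene (52609 in all) the estimated counts of its transcripts were added up, then rounded. Per library the summed reads of Pou5f1, Nanog, Lin28a, Zfp281, L1td1 and Utf1 were whole numbers within 0.01 in 9 of 9 libraries, and those of Sall4 in 5.

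A single edgeR 4.0.16 quasi-likelihood model (R 4.3.3) of 4 group means fitted to the 9 libraries, TMM scaling and filterByExpr (18096 genes) gave 6 comparisons, adjusted over all genes tested by Benjamini-Hochberg with a threshold of 0.05. It was tested on simulated data with independent libraries and the same dispersion in every group. That cannot show how the model behaves under the unequal spread between groups seen here. Common dispersion was 0.0524. The genes and lists were chosen with earlier results of these data known. Named beside the 10 genes were, per list, up to 3 called genes with the smallest adjusted p, or the 2 with the highest mean TPM where none was called, the 2 most alike genes that reached 5 TPM in a group mean, and Dkk1. A gene that this rule names is not reported here.

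Alternatives were other scaling factors, DESeq2 1.42.0, other filters, a transcript length offset, limma 3.58.1 on log2(TPM + 1) or log2(TPM + 0.1), only the groups compared, replicate terms, the Dkk1_KO libraries left out or averaged to 1, and each library left out. The 6 libraries without Dkk1_KO with a replicate term was chosen after seeing the data. Precision is limited by counting error for Pou5f1, Nanog and Lin28b in Dkk1_KO, with 15 to 52 reads per library.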

Additional observations from a re-analysis of the deposited data

How the results depend on the processing

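No call of the 10 genes changed sign under any alternative. In Dkk1_KO against control 7 genes were called, and 4 with the Dkk1_KO libraries averaged to 1, a setting that also gave 4 against IWP2_removed and 4 against IWP2. Pou5f1, Nanog, Lin28b and Utf1 were called under all 17 alternatives of each of these 3 comparisons. Leaving out each Dkk1_KO library in turn gave 6 to 7 genes against control, 6 to 7 against IWP2_removed and 6 against IWP2. Calls over all genes fell as well, to 6143 to 6214, 6725 to 6768 and 7441 to 7555 in the same order, in place of 8018, 8538 and 9315. Without IWP2 replicate 2, L1td1 in Dkk1_KO against IWP2 was at a log2 fold change of -0.13. In IWP2 against control the count of 0 became 1 with the DESeq2 test and 2 with no filter on low counts. Calls over all genes rose there as well, to 1002 and 1220 in place of 396. The count of the 10 genes also moved when an IWP2 library was left out. IWP2_removed against control kept 0 throughout, and IWP2_removed against IWP2 gave 0 to 3, the 3 without IWP2 replicate 2. Where a library was left out of a pair, the lone library was taken to vary like the other groups. The cause of these changes was not tested.

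Uncalled values of Sox2 (-0.49 to 0.19) and Zfp281 (-0.12 to 0.21) in Dkk1_KO against control took both signs. The median of all genes in that comparison was -0.03 in edgeR and -0.135 in limma on log2(TPM + 1) and -0.213 on log2(TPM + 0.1). Genes kept in Dkk1_KO numbered 5, with 6 in CPM (Sall4 added) and 7 at a threshold of 25% (Sall4 and L1td1 added). Counts over all genes were 396 in IWP2 against control, 227 in IWP2_removed against control and 11 in IWP2_removed against IWP2, and 12, 1 and 1 without the Dkk1_KO libraries, and over all alternatives they spanned 1 to 2432, 1 to 732 and 0 to 454. The split of those in IWP2 against control was 230 higher and 166 lower, and 61 and 117 by limma on log2(TPM + 0.1). With the Dkk1_KO libraries averaged to 1 the counts were 2725 against control, 3132 against IWP2_removed and 3876 against IWP2, in place of 8018, 8538 and 9315. The replicate term added after seeing the data, in the 6 libraries without Dkk1_KO, left 0 of the 10 genes called in each comparison, but brought the counts over all genes to 448, 202 and 2 in place of 12, 1 and 1. The replicate numbers are shared by the groups, and same-numbered libraries deviated together in IWP2_removed, IWP2 and control (correlations across genes 0.430 to 0.661) but not with Dkk1_KO (-0.104 to -0.044). The libraries also carry replicate letters, which match other Dkk1_KO libraries to those of the 3 groups. By letter the correlations with Dkk1_KO were -0.015 to 0.100. No label says what a number stands for, and with only 2 numbers the samples were not treated as paired. The replicate block by number left 7 genes called in Dkk1_KO against control, 7 against IWP2_removed and 6 against IWP2, and 0 in the 3 other comparisons.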
